A study of Sus scrofa and Rattus norvegicus with 8 samples.

Results

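The 9 genes PLIN1, PLIN2, PLIN3, PLIN4, PLIN5, CIDEC, CIDEB, BSCL2 and FITM2 encode the perilipins, the CIDE proteins of white fat and proteins of droplet biogenesis. They were chosen by gene symbol from what is known of their products, not by a rule on their values here. Earlier results of these data were known when they were chosen. All 9 had an Ensembl gene ID in the pig table, among 14844 named nuclear genes and 25880 IDs in all. RNA-seq was performed on the upper layer of backfat, a subcutaneous white fat depot, of 6 adult female Bama pigs aged 2 years, with 1 library per pig. The pigs formed 1 group without a treatment or genotype contrast. Total RNA was depleted of ribosomal RNA and sequenced as stranded libraries. The series also holds 2 pools of inguinal fat from female SD rats, whose gene IDs could not be tied to symbols and which were not analysed here.

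A lipid droplet is a core of neutral lipid, in fat mostly triglyceride, enclosed by a single layer of phospholipid. Droplets form in the membrane of the endoplasmic reticulum, where seipin (BSCL2) and FITM2 help them to emerge. Perilipins then coat the surface and govern the access of lipases, and CIDE proteins pass lipid from small to large droplets, which in white adipocytes yields a single large droplet.

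Values are TPM, a transcript abundance corrected for length and set to a fixed total in each library. Levels can thus be compared between genes of a library. A comparison between pigs also depends on how that total is shared out among transcripts. TPM keep no read counts, so the depth is unknown and the precision of each value rests on the spread between the 6 pigs. Pig replicates 4 and 5 stood apart before any droplet gene was considered. Named nuclear genes held 3.34% and 4.73% of the TPM in replicates 4 and 5, against 24.1% to 26.3% in the other 4 libraries. Mitochondrially encoded genes held 0.209% and 0.298% against 10.8% to 21.2%, and named nuclear genes over 0.1 TPM numbered 10126 and 10556 against 12736 to 12884. Every library was therefore also rescaled so that its named nuclear genes summed to 1e+06, which multiplied replicates 4 and 5 by 29.9 and 21.1 and the others by 3.80 to 4.15. All 12 adipocyte markers examined exceeded 0.1 TPM in every pig, where 67.2% of named nuclear genes did. Of 8 skeletal muscle markers 4 were found, and they were near 0, with ACTA1 at 1.84 ± 2.27 and CKM at 1.38 ± 0.876 rescaled TPM (SD, n = 6). In bulk tissue, fewer cells of a type and less RNA per cell cannot be told apart.

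The sequences just upstream of the annotated start are shown for PLIN1, PLIN4 and CIDEC, the most abundant of the 9 genes, and for PLIN5, the low-abundance neighbour of PLIN4. Each run holds the 250 bases before the start of the outermost RefSeq transcript on Sscrofa11.1, in the direction of the gene. The intervals are chr7:55250798-55251047 on the minus strand for PLIN1, chr2:74318374-74318623 on the plus strand for PLIN4, chr13:66149802-66150051 on the minus strand for CIDEC and chr2:74304363-74304612 on the plus strand for PLIN5. Capitals mark exact matches, on either strand, to 5 short motifs. These were TATAAA, which binds the basal machinery near many start sites, and CCAAT, the element bound by nuclear factor Y. They also were GGGCGG, recognised by Sp family factors, CACGTG, recognised by many helix-loop-helix factors, and AGGTCA, recognised by nuclear receptors.
PLIN1: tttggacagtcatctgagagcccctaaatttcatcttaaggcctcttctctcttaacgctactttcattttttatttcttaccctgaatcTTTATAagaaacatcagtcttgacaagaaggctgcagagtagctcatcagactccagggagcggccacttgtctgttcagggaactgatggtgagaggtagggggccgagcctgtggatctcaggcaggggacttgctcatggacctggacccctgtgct
PLIN4: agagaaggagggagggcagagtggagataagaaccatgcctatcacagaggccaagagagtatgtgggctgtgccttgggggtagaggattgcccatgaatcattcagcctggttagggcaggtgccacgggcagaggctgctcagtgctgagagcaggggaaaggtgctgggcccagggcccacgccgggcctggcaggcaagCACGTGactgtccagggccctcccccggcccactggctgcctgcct
CIDEC: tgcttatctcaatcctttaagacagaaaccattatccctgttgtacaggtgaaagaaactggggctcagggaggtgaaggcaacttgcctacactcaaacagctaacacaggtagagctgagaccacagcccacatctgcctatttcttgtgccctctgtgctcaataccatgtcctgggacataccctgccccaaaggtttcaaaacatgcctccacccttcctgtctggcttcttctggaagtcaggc
PLIN5: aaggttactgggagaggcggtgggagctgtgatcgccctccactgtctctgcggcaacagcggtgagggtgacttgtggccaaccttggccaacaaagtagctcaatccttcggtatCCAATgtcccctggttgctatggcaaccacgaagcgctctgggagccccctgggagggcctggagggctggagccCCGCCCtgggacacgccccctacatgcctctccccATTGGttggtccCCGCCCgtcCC
The windows differed in composition. GC content was 48.8% in PLIN1, 49.6% in CIDEC, 63.6% in PLIN4 and 64% in PLIN5, and CIDEC had 0 CpG dinucleotides against 11 in PLIN5. In the wider window from 250 bases before to 50 after the start, PLIN5 held 7 matches, made up of CCAAT and GGGCGG on both strands, and the capitals that end its run are the first bases of a match that crosses the start. PLIN4 held CACGTG 46 bases before the start, a match found in 7.92% of 19556 promoters and in 1 of the 9 genes. PLIN1 held TATAAA on the opposite strand 160 bases before the start, and CIDEC held none of the 5 motifs. TATAAA was present in 10.9% of all promoters and in 2 of the 9 genes, CCAAT in 35.4% and 3 genes, GGGCGG in 50.6% and 4 genes, and AGGTCA in 14.1% and 0 genes. These matches are descriptions of the letters in a window, and several of the genes have other annotated starts.

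The 9 genes lie on 5 chromosomes of Sscrofa11.1, and 4 of them lie on chromosome 2. PLIN5 (chr2:74304613-74314314) and PLIN4 (chr2:74318624-74331920) are neighbours on the plus strand with 4309 bases between them, and PLIN3 (chr2:73970149-73995314) ends 309298 bases before PLIN5 begins. BSCL2 (chr2:9052676-9064890, plus strand) is the other gene of that chromosome. PLIN1 (chr7:55237517-55250797, minus strand) has 9 exons in a transcript of 1575 bases. CIDEB (chr7:74982941-74985776, plus strand) shares its chromosome. The remaining genes are PLIN2 (chr1:203683867-203709277, plus strand), CIDEC (chr13:66141836-66149801, minus strand) and FITM2 (chr17:46742662-46745898, minus strand). The longest transcript ranged from 814 bases in FITM2 to 6880 bases in PLIN4.

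No 31-base word was shared between the RefSeq transcripts of any of the 36 pairs of the 9 genes. Reads of one member are therefore not readily taken for another. PLIN4 is repetitive within itself, as 39.7% of the 31-base words of its longest transcript occurred more than once. Bases 198 apart, or 66 codons, were identical at 57.8% of positions of PLIN4, and bases 99 apart, or 33 codons, at 56.6%, against a median of 25.4% over all distances examined. Such repeats do not link PLIN4 to another member of the group. Some members overlap genes of the opposite strand, and the sources used here do not give whether quantification used the strand. CIDEB shares 145 exon bases with LTB4R2, which was at 1.88 ± 1.48 rescaled TPM (SD, n = 6), and 29 with NOP9 at 8.79 ± 1.94. The low value of CIDEB is therefore uncertain in its source. Among the abundant members, CIDEC shares 159 exon bases with a long non-coding RNA gene and PLIN4 shares 30 with HDGFL2, while the overlap of PLIN1 with a non-coding gene contains 0 exon bases. BSCL2 shares 313 exon bases with GNG3 and 496 with a non-coding gene.

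PLIN1, PLIN4 and CIDEC dominated the group, and their 3 transcripts made up 90.6% ± 1.20 (SD, n = 6) of its summed TPM. Mean rescaled levels of the 9 genes spanned 651-fold, from PLIN1 at 1659 ± 353 (SD, n = 6) to CIDEB at 2.55 ± 0.273. Of the 9 genes, 8 exceeded 0.1 TPM as deposited in all 6 pigs, where 67.2% of named nuclear genes did. The exception was CIDEB, at 0.0860 TPM in replicate 4, and without replicates 4 and 5 all 9 passed, beside 83.1% of named nuclear genes. At the stricter limit of 1 TPM the count was 7 of 9, against 30.9% of named nuclear genes, with PLIN5 over it in 4 pigs and CIDEB in 0. The level of each gene in each pig is drawn on both scales in the plot of the 9 genes.

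**Figure D1:**
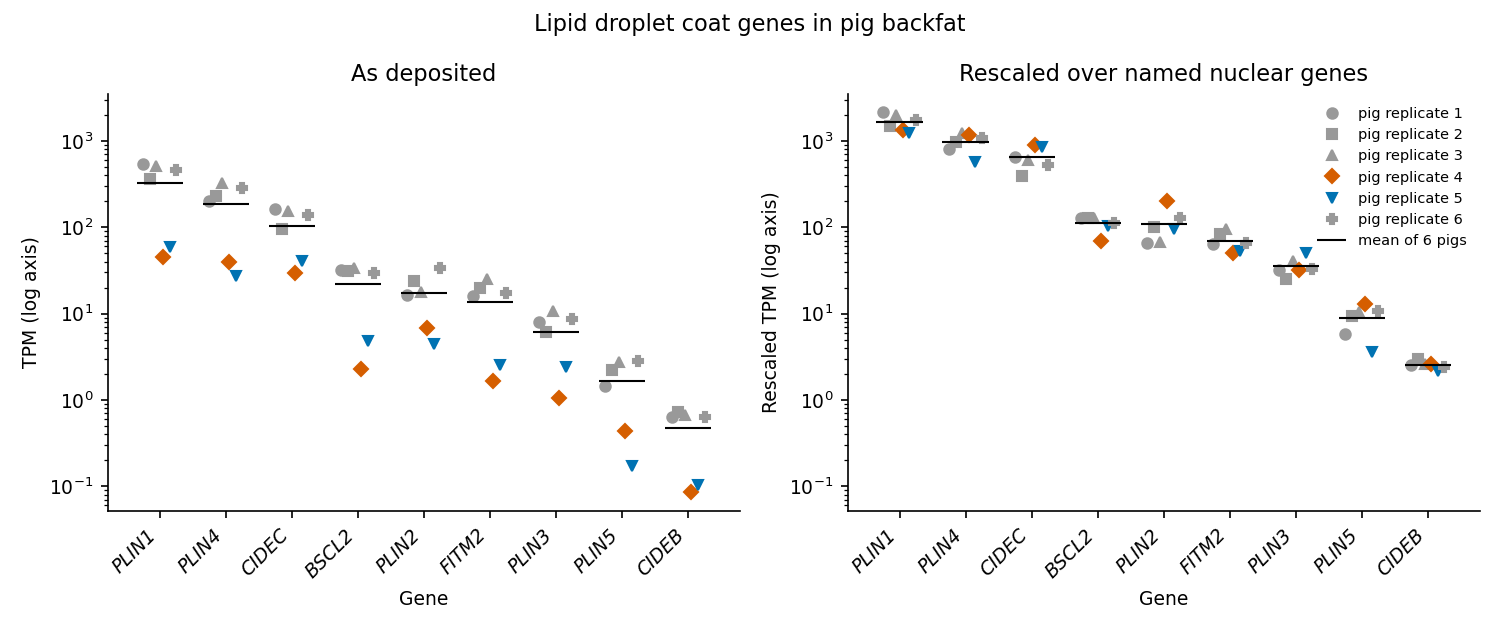
TPM of the 9 lipid droplet genes (horizontal axis) in each of 6 pigs, as deposited on the left and rescaled over named nuclear genes on the right, both on log axes, with 1 symbol per pig and a bar at the mean. Replicates 4 and 5, in colour, lie below the other 4 pigs for all 9 genes as deposited, and after rescaling the means run from 1659 for PLIN1 to 2.55 for CIDEB.

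PLIN1, the coat protein of the large droplet of adipocytes and a holder of the lipase co-activator ABHD5, was the most abundant member. Its rescaled TPM were 2137, 1506, 1973, 1351, 1247 and 1738 in replicates 1 to 6. Replicates 4 and 5 were the lowest, although replicate 2 lay only slightly above them. As deposited, PLIN1 was at 534, 363, 517, 45.1, 59.0 and 458 TPM in the same order, a range of 11.8-fold that narrowed to 1.71-fold on rescaling. PLIN1 stood above 99.6% of 12130 named nuclear genes whose rescaled TPM averaged 1 or more. Without replicates 4 and 5 its mean was 1839 ± 276 (SD, n = 4).

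PLIN4, a perilipin of adipocytes with a long repetitive helical stretch, followed at 978 ± 255 rescaled TPM (SD, n = 6). Its values in replicates 1 to 6 were 802, 967, 1249, 1184, 573 and 1091 rescaled TPM. Replicate 5 was the lowest, while replicate 4 was the second highest, so the pair of libraries that stood apart did not move together for PLIN4. As deposited its level was 186 ± 126 TPM (SD, n = 6).

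PLIN2, which coats droplets in most cell types and is degraded when it is not bound to lipid, was at 110.0 ± 51.1 rescaled TPM (SD, n = 6). Its values in replicates 1 to 6 were 66.1, 99.4, 67.7, 203, 94.8 and 129 rescaled TPM, with replicate 4 the highest at 3.07 times the lowest. PLIN2 had the widest relative spread of the 9 genes, its CV, or coefficient of variation (SD over mean), being 0.464. Without replicates 4 and 5 its mean was 90.5 ± 29.8 (SD, n = 4). As deposited PLIN2 was at 17.2 ± 10.9 TPM (SD, n = 6).

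PLIN3, an exchangeable perilipin that moves between cytosol and nascent droplets, ranged from 25.3 to 50.2 rescaled TPM with a median of 32.6. Its highest value was in replicate 5, and the other 5 pigs lay at or below 40.6. As deposited PLIN3 was at 6.15 ± 3.75 TPM (SD, n = 6). PLIN5, a perilipin best known from oxidative tissues such as heart, where it tethers droplets to mitochondria, was the least abundant perilipin, ranging from 3.58 to 13.0 rescaled TPM with a median of 9.87. Replicates 4 and 5 were the highest and the lowest pig for PLIN5. As deposited PLIN5 was at 1.64 ± 1.15 TPM (SD, n = 6).

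CIDEC, which enriches at contacts between droplets and drives the transfer of lipid to the larger one, was the most abundant CIDE gene. Its rescaled TPM were 647, 391, 595, 892, 856 and 522 in replicates 1 to 6. Here replicates 4 and 5 were the highest and did not overlap with the other 4, whereas as deposited, at 29.8 and 40.5 TPM against 94.3 to 162, they were the lowest. Without replicates 4 and 5 the mean was 539 ± 111 rescaled TPM (SD, n = 4), against 650 ± 193 (SD, n = 6) in all pigs.

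CIDEB, a CIDE gene best known from liver, where it aids the lipidation of lipoproteins, was 262 ± 94.7 (SD, n = 6) times less abundant than CIDEC within a library. It was at 2.18 to 3.01 rescaled TPM, and its CV of 0.107 was the smallest of the 9 genes, with 4.67% of named nuclear genes below it. That rank depended on the scale and the libraries, as the CV of CIDEB was 0.188 with median-centring, where PLIN1 had 0.141, and 0.327 with quantile normalization, where BSCL2 had 0.150. Without replicates 4 and 5 it was 0.0995, above the 0.0619 of BSCL2. As deposited it was at 0.476 ± 0.298 TPM (SD, n = 6). All 6 liver markers had a value above 0 in at least 1 pig, with ALB at 47.6 to 1091 rescaled TPM, and their sum was 1162 to 1342 in replicates 4 and 5 against 65.1 to 1008 in the other pigs. SERPINA1 was listed at 0 in every pig but replicate 5. CIDEB was highest in replicate 2, and the part of liver transcripts in its level was not tested.

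The genes of droplet formation were intermediate in level. BSCL2, which forms a ring at the junction of endoplasmic reticulum and droplet and whose loss causes a congenital lipodystrophy, was at 128, 128, 128, 68.6, 103 and 112 rescaled TPM in replicates 1 to 6. Replicates 4 and 5 were the lowest. Without them the CV of BSCL2 was 0.0619, against 0.209 in all 6 pigs. FITM2, a protein of the endoplasmic reticulum needed for droplet budding, ranged from 49.8 to 95.6 rescaled TPM with a median of 65.1, and replicates 4 and 5 were again the lowest. As deposited BSCL2 was at 22.2 ± 14.5 TPM and FITM2 at 13.8 ± 9.56 TPM (SD, n = 6).

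The order of the 9 genes was compared between neighbours within each library, where a factor common to the library cancels. The exact two-sided sign-flip permutation test over 6 pigs cannot give a p below 0.03125, and Benjamini-Hochberg adjustment over the 8 pairs then gives 0.05. PLIN1 exceeded PLIN4 in 6 of 6 pigs, by 0.78 ± 0.43 log2 units (SD, n = 6, exact p = 0.03125, adjusted p = 0.05). CIDEC exceeded BSCL2 in 6 of 6 pigs by 2.52 ± 0.74 log2 units, the widest step in the order. FITM2 exceeded PLIN3 by 0.94 ± 0.55, PLIN3 exceeded PLIN5 by 2.08 ± 0.93 and PLIN5 exceeded CIDEB by 1.64 ± 0.61 log2 units, again in 6 of 6 pigs each and with the same exact p and adjusted p. These 5 of 8 steps sat at the smallest p that 6 pigs allow. The order itself was taken from the means of the same 6 libraries, so these p-values are no independent test of it. They show that a step had the same sign in all 6 pigs, not that its size was even. FITM2 minus PLIN3, for example, ran from 0.078 in replicate 5 to 1.71 log2 units in replicate 2.

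The other 3 steps were not resolved. PLIN4 exceeded CIDEC by 0.60 ± 0.70 log2 units in 5 of 6 pigs (SD, n = 6, exact p = 0.125, adjusted p = 0.167), and replicate 5 had more CIDEC than PLIN4. BSCL2 and PLIN2 differed by 0.10 ± 0.93 log2 units, with BSCL2 higher in 4 of 6 pigs (SD, n = 6, exact p = 0.844). The sign of that difference turned without replicate 1, at -0.072, and without replicate 3, at -0.066. PLIN2 exceeded FITM2 by 0.61 ± 0.88 log2 units in 5 of 6 pigs (SD, n = 6, exact p = 0.156, adjusted p = 0.179). BSCL2 exceeded FITM2 in every pig, at 1.34 to 2.00 times its level, so within this trio the place of PLIN2 alone varied between pigs.

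Within the perilipin family, PLIN1 supplied 59.5% ± 7.15 and PLIN4 34.8% ± 5.98 of the summed TPM (SD, n = 6). PLIN2 supplied 4.07% ± 1.94, PLIN3 1.34% ± 0.599 and PLIN5 0.311% ± 0.109. The share of PLIN1 ran from 48.5% in replicate 4 to 70.2% in replicate 1, and that of PLIN4 ran in the opposite order at those ends, from 42.6% to 26.3%. PLIN1 and PLIN4 together held 94.3% ± 2.18, with replicates 4 and 5 lowest at 91.1% and 92.5% against 94.2% to 96.6%. PLIN2 took 7.29% in replicate 4 and 4.82% in replicate 5, above its 2.03% to 4.29% in the other 4 pigs. Without replicates 4 and 5 the shares of PLIN1, PLIN4 and PLIN2 were 61.2%, 34.3% and 3.08%.

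**Figure D2:**
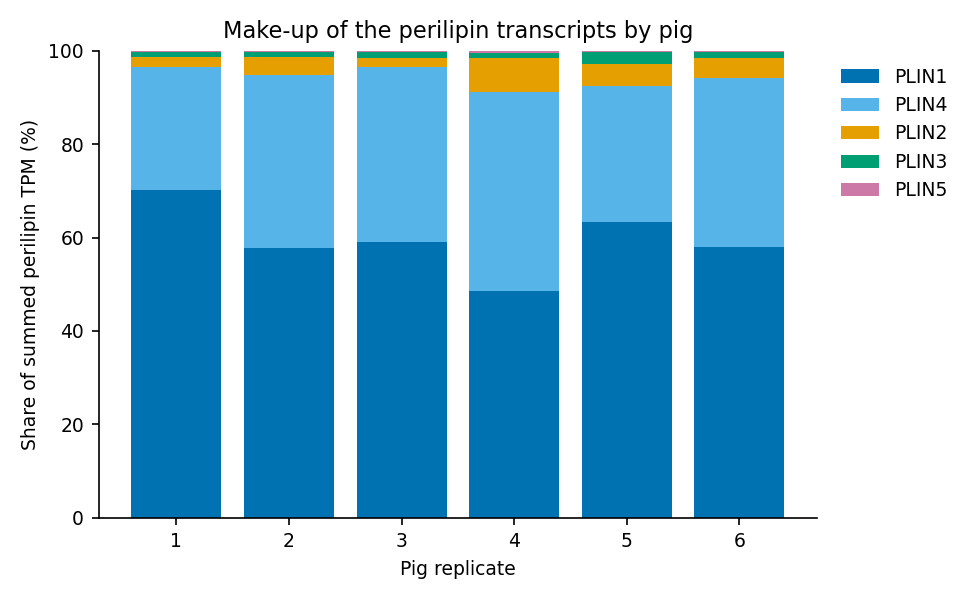
Stacked bars give the share of the summed perilipin TPM (vertical axis, %) held by each of the 5 perilipins in each of 6 pigs (horizontal axis). PLIN1 and PLIN4 fill 91.1% to 96.6% of every bar, and PLIN2 is largest in replicate 4 at 7.29%.

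Levels were next expressed relative to PLIN1 within each library. The ratio of CIDEC to PLIN1 was 0.303, 0.260, 0.301, 0.660, 0.686 and 0.300 in replicates 1 to 6. Replicates 4 and 5 thus lay well above the other 4 pigs, which were close to each other. The ratio of PLIN2 to PLIN1 was also higher in replicates 4 and 5, at 0.150 and 0.0760 against 0.0309 to 0.0742, the second of these being only just above the other pigs. For PLIN3 the ratio to PLIN1 was 0.0234 and 0.0402 against 0.0151 to 0.0206. How many of all genes had such a ratio to PLIN1 was not counted, while 29.9% were higher in both libraries with median-centring. Ratios of PLIN4, PLIN5, CIDEB, BSCL2 and FITM2 to PLIN1 overlapped between these libraries and the rest, and that of PLIN4 ranged from 0.375 to 0.877. An overlap here does not mean a steady ratio, as the log2 ratio of PLIN5 to PLIN1 had an SD of 0.71 over the 6 pigs, against 0.63 for CIDEC, 0.50 for PLIN3 and 0.43 for PLIN4.

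**Figure D3:**
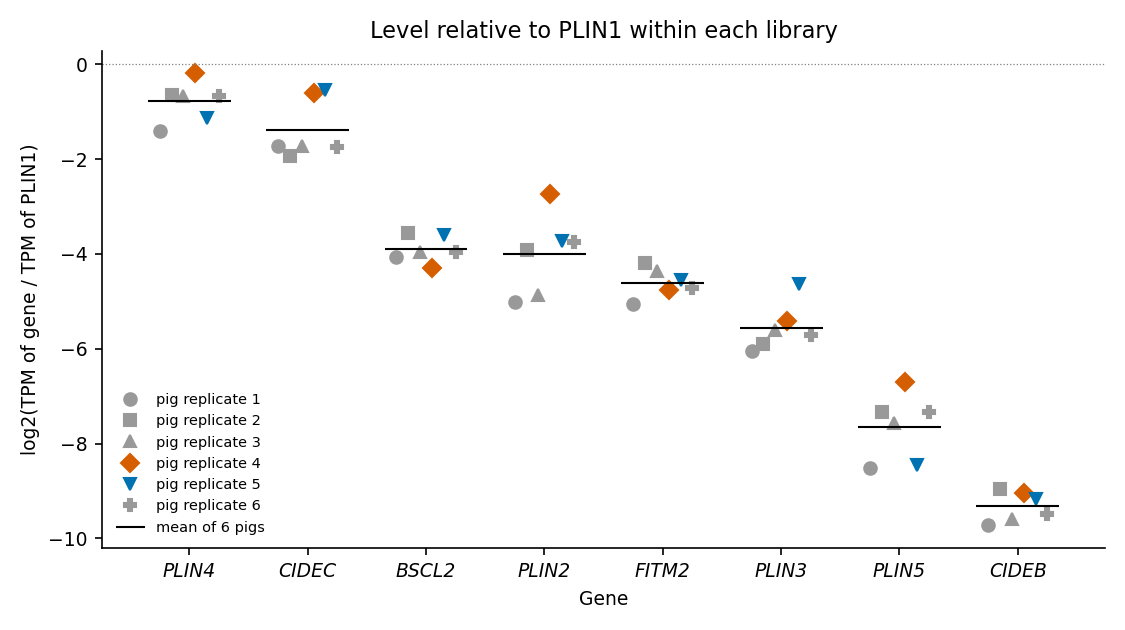
Level of 8 genes relative to PLIN1 within each library, as log2 of the TPM ratio (vertical axis), with 1 symbol per pig and a bar at the mean of 6 pigs. CIDEC, PLIN2 and PLIN3 lie higher in replicates 4 and 5, in colour, than in the other 4 pigs, while BSCL2 and FITM2 overlap.

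Among the 36 pairs of members, BSCL2 and FITM2 kept the steadiest ratio, 1.65 ± 0.281 (SD, n = 6), with an SD of 0.25 for its log2. Next came PLIN1 with BSCL2 at 0.28 and PLIN4 with PLIN5 at 0.30. PLIN4 exceeded its tandem neighbour PLIN5 119 ± 25.9-fold (SD, n = 6), ranging from 91.0 to 159.9, and both genes of the locus were at their lowest rescaled level in replicate 5. The loosest pairs were PLIN3 with PLIN5, CIDEC with PLIN5 and PLIN2 with BSCL2, at 0.94, 0.93 and 0.93. All of these ratios come from the same 6 libraries and carry the low nuclear share of replicates 4 and 5, and they are given as a description.

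Rescaled levels varied less between pigs than deposited ones for 9 of 9 genes, as they did for 98.1% of all genes. The median CV was 0.257 after rescaling and 0.653 before it, and 7 of 9 genes lay below the median CV of 0.327 over 12130 named nuclear genes. PLIN2 and PLIN5 (CV 0.395) were the exceptions. This difference from the median gene rested on replicates 4 and 5, for without them the median CV was 0.192 over the 9 genes and 0.188 over all genes, and 4 of 9 members lay below the latter. For 0 of 9 members a pig lay far from the other 5 by Dixon's criterion, where 4.83% of all genes had such a pig, and as deposited it was also 0 of 9 beside 1.39%. With median-centring or quantile normalization the count was 1 of 9, PLIN2, where 5.57% and 5.69% of all genes met it.

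Replicates 4 and 5 were then set against the other 4 libraries gene by gene. The mean of log2(rescaled TPM + 0.1) was lower in them by a median of 0.53 over all genes (a shift of -0.53), so the members are read relative to that value. Against it CIDEC was 1.25, PLIN2 1.20 and PLIN3 0.83 log2 units higher, and these genes shifted more upward than 94.6%, 93.9% and 86.3% of all genes. CIDEB at 0.39, PLIN4 at 0.23, PLIN5 at 0.17 and PLIN1 at 0.04 were closer to it, and BSCL2 and FITM2, both at -0.03, were at the median. The size and order of these relative shifts depended on the scale. With quantile normalization they were 0.94 for PLIN2, 0.76 for PLIN3, 0.75 for CIDEB, 0.65 for CIDEC and 0.38 for PLIN5. FITM2 was at -0.18, BSCL2 at -0.24, PLIN4 at -0.43 and PLIN1 at -0.75. On deposited values CIDEC was at 0.91, CIDEB at 0.88, PLIN2 at 0.87 and PLIN1 at -0.31. Deposited and rescaled values differ only by a factor per library, so this change comes from the fixed pseudocount of 0.1. CIDEB was at 0.0860 and 0.103 TPM as deposited in replicates 4 and 5, close to that pseudocount. CIDEC, PLIN2, PLIN3, CIDEB and PLIN5 were above the all-gene median, and BSCL2 and FITM2 below it, on each of these scales and with median-centring. PLIN1 and PLIN4 fell below it with quantile normalization, and on deposited values by way of the pseudocount. On the rescaled values, both libraries lay above the other 4 for 1 of 9 members, CIDEC, where 10.4% of all genes did so. Both lay below for 3 of 9, PLIN1, BSCL2 and FITM2, where 50.1% of all genes did so.

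These directions depended on the scale. As deposited, 9 of 9 members were lower in both libraries, as were 98.2% of all genes, and 0 were higher, as were 0.0742%. Under median-centring PLIN2, PLIN3, CIDEC and CIDEB were higher in both libraries (29.9% of all genes) and 0 were lower (26.3%), so that the lower values of PLIN1, BSCL2 and FITM2 were not kept. With quantile normalization CIDEC and CIDEB were higher (27.4%) and PLIN1 alone was lower (25.8%). CIDEC was thus higher in both libraries under rescaling, median-centring and quantile normalization and lower as deposited. What sets replicates 4 and 5 apart was not tested.

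**Figure D4:**
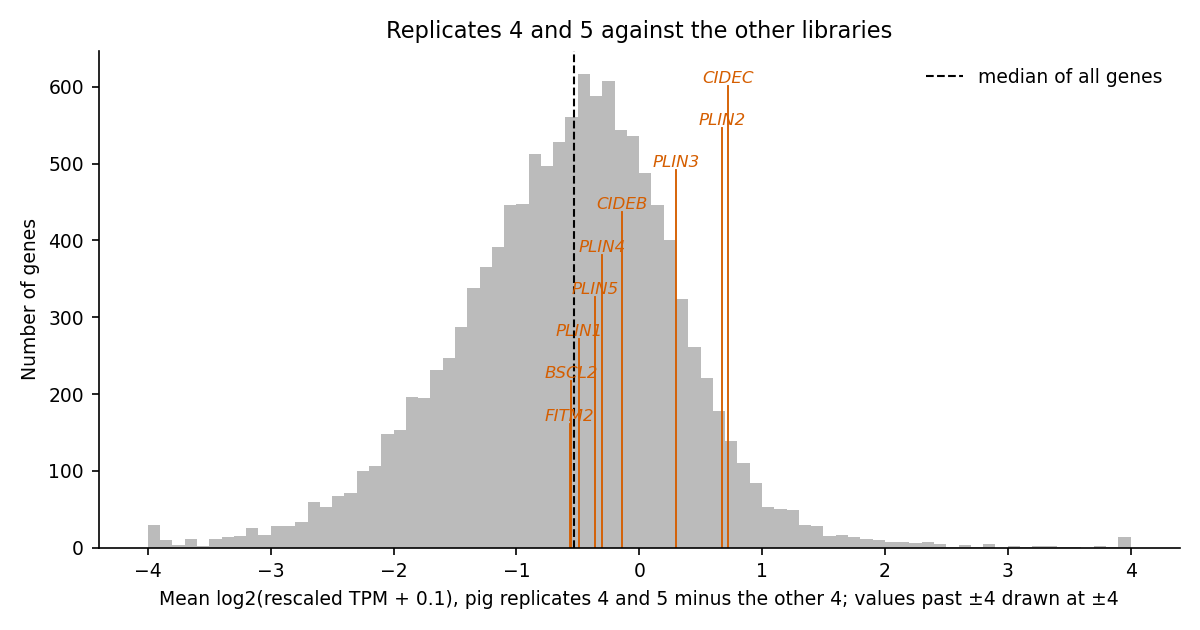
Histogram of the difference in mean log2(rescaled TPM + 0.1) between pig replicates 4 and 5 and the other 4 pigs (horizontal axis) over 12130 genes (vertical axis, number of genes), with the 9 lipid droplet genes as labelled lines and the median of all genes, -0.53, dashed. CIDEC and PLIN2 lie far to the right at 0.72 and 0.67, while PLIN1, BSCL2 and FITM2 lie near the dashed line.

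The shift also varied with transcript length and GC content. With genes cut into 10 bins of equal size, its median was -0.06 in the bin of the shortest transcripts and -0.89 in that of the longest, and -0.30 in the bin of lowest and -0.62 in that of highest GC content. CIDEC, with a shift of 0.72, stood against a median of -0.22 over 120 genes of like length and GC content, and PLIN2, with a shift of 0.67, against -0.10 over 126 genes. PLIN4, the longest member, shifted by -0.30 where its 72 like genes had a median of -1.09. PLIN1 shifted by -0.49 where its 153 like genes had a median of -0.14, and it was thus lower than genes of its kind although it lay close to the median of all genes. FITM2 (-0.57 against -0.26) was likewise below genes of its kind, and PLIN3 (0.30 against -0.51) was above them. Shifts of BSCL2 (-0.56 against -0.51), PLIN5 (-0.36 against -0.44) and CIDEB (-0.14 against -0.10) were close to those of like genes.

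Other droplet proteins were less abundant than the main coats. Of 20 listed genes, 14 were found, with mean rescaled levels from 1.47 for FITM1, a muscle relative of FITM2, to 279.8 for SPART, a regulator of droplet turnover. HSD17B11, a droplet-targeted dehydrogenase, was at 90.7 ± 12.0 and LSS, the lanosterol synthase, at 78.1 ± 39.8 rescaled TPM (SD, n = 6). In this list 2 of 14 genes were higher and 3 of 14 lower in both replicates 4 and 5, beside 10.4% and 50.1% of all genes. Their median CV was 0.167, below the 0.257 of the coat genes. CIDEA, the CIDE gene of brown fat, had no ID in the name table.

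Genes of lipolysis act on the surface that PLIN1 guards. LIPE, the hormone-sensitive lipase, was at 990.0 ± 415 and PNPLA2, the rate-limiting triglyceride lipase, at 399 ± 211 rescaled TPM (SD, n = 6). PRKAR2B, a regulatory subunit of protein kinase A, was at 575 ± 113, and ADRB3 was near 0 at 0.0939 ± 0.116 rescaled TPM. The ratio of PNPLA2 to PLIN1 was 0.121 and 0.104 in replicates 4 and 5 and 0.230 to 0.333 in the other 4 pigs. ABHD5, which PLIN1 holds away from PNPLA2 in the resting cell, ran the other way, at 0.191 and 0.268 of PLIN1 against 0.0652 to 0.154. It was named after its values were seen. Ratios to PLIN1 were also taken for LIPE, which was lower in both libraries, and for G0S2, which was higher in both. The share of all genes with such ratios to PLIN1 was not counted. Of 9 genes found in this list, 2 were higher and 4 lower in both libraries, beside 10.4% and 50.1% of all genes, so the lower count was near the background.

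Triglyceride synthesis was led by DGAT2, which makes triglyceride at the droplet, at 743 ± 372 rescaled TPM (SD, n = 6). GPAT4 was at 228 ± 81.1 and LPIN1 at 197 ± 143, while AGPAT2, whose loss also causes a lipodystrophy, was the lowest of the 9 genes found at 8.42 ± 3.49. Of these 9 genes 1 was higher and 3 were lower in both replicates 4 and 5, beside the same 10.4% and 50.1%. Among 9 transcriptional regulators, PPARG, which drives perilipin and CIDEC transcription in adipocytes, was at 453 ± 190 rescaled TPM (SD, n = 6). CEBPA was at 316 ± 186 and CEBPB at 257 ± 55.4, and PPARGC1A was lowest at 0.653 ± 0.318. The ratio of PPARG to PLIN1 overlapped between the libraries, whereas that of CEBPA was 0.416 and 0.432 in replicates 4 and 5 against 0.0881 to 0.125. For these ratios too the share of all genes was not counted. Of these regulators 3 were higher and 5 lower in both libraries, again beside 10.4% and 50.1% of all genes.

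**Figure D5:**
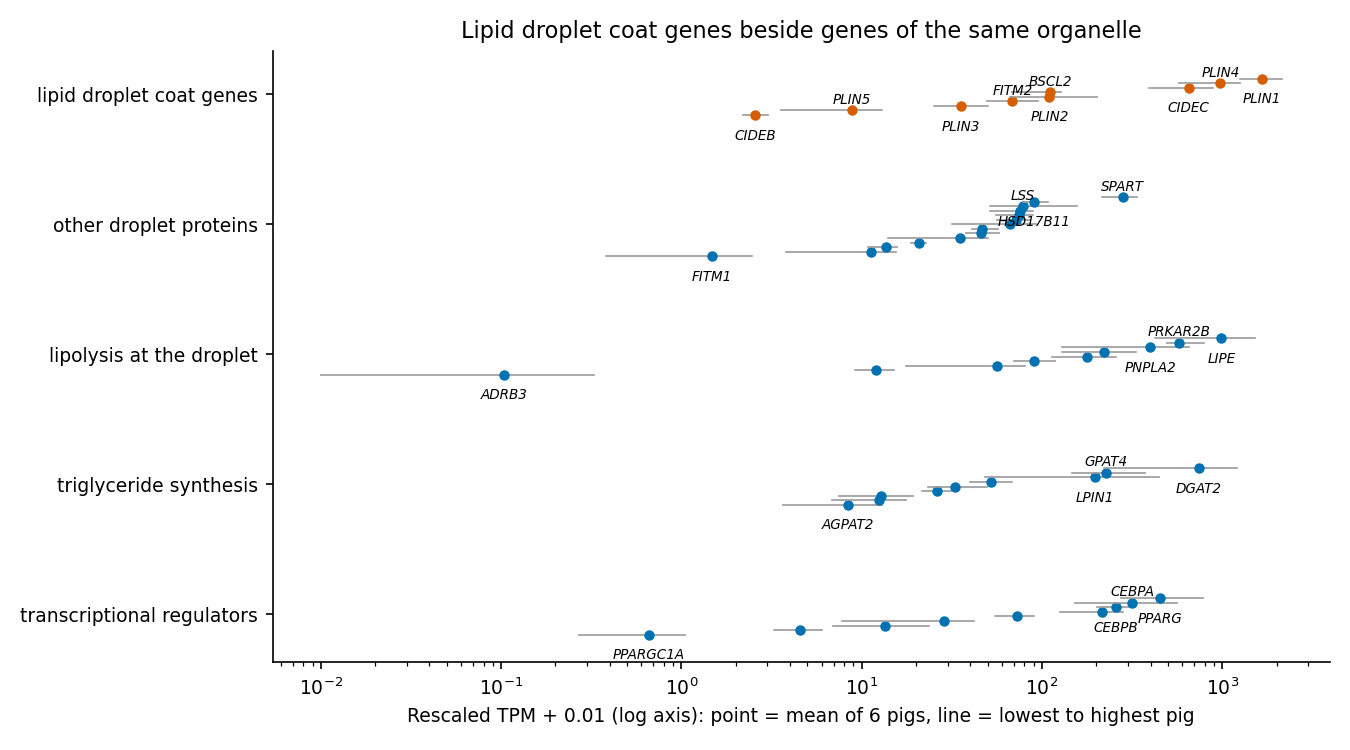
Mean rescaled TPM + 0.01 (horizontal log axis) of each gene in 5 lists (vertical axis), as a point with a line from the lowest to the highest of 6 pigs. PLIN1 lies furthest right at 1659, ahead of LIPE, PLIN4 and DGAT2, and FITM1, ADRB3 and PPARGC1A lie furthest left.

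Markers of other cells were read beside these values. The 4 skeletal muscle markers found summed to 0.887 to 0.945 rescaled TPM in replicates 4 and 5 and 2.19 to 11.5 in the others. The summed rescaled TPM of 7 macrophage markers was 301 to 462 in replicates 4 and 5 against 525 to 677 in the others, and that of 5 stromal markers was 5202 to 5460 against 8189 to 15318. Sums of 4 endothelial markers were 605 to 736 against 1034 to 1322, and those of 4 smooth muscle markers 436 to 451 against 530.3 to 898. The 12 adipocyte markers summed to 26739 to 36214 in replicates 4 and 5 and 18989.5 to 33957 in the others, which overlap. Of 6 brown adipocyte markers 4 were found, and their sum was 26.6 to 40.1 against 18.8 to 22.7. COX7A1 made up most of it, at 25.3 and 36.9 in replicates 4 and 5 against 12.9 to 18.6, whereas PRDM16 and PPARGC1A were lower in both libraries and DIO2 overlapped. The 3 epithelial markers found summed to 8.88 to 18.0 rescaled TPM in replicates 4 and 5 and 4.04 to 6.73 in the others. KRT18 made up most of it in replicates 4 and 5, at 14.9 and 6.82 against 1.71 to 3.30, whereas EPCAM was lower in both libraries and CDH1 overlapped. In these libraries the macrophage, stromal, endothelial, smooth muscle and skeletal muscle sums were lower, and the brown adipocyte, epithelial and liver sums were higher. On this scale the median of all genes itself shifted by -0.53 log2 units. Markers higher in both libraries were 2 of 6 for liver, 1 of 4 for brown adipocytes and 1 of 3 for epithelium, where 10.4% of all genes were higher in both. Markers lower in both libraries were 4 of 7 for macrophages, 3 of 5 for stroma and 3 of 4 for endothelium. They were 2 of 4 for smooth muscle and 2 of 4 for skeletal muscle, where 50.1% of all genes were lower in both. The part of other cells in the levels of the coat genes was not tested.

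Genes whose level followed a coat gene most closely were ranked by the SD over 6 pigs of their log2 ratio to it, among 8852 genes whose rescaled TPM averaged 10 or more. Closest to PLIN1 were VPS11 with an SD of 0.04, then MAVS, CNOT8, ZNF382 and KRCC1, where the median gene had 0.44. For PLIN2 they were SPSB1 at 0.22, PLS3, CHST13, MAFF and CFB, with a median of 0.80. CAVIN3, a protein of the caveolar coat, was closest to CIDEC at 0.09, followed by D2HGDH, STOML2, PITHD1 and LTO1, with a median of 0.72. No other coat gene was among the 5 closest to PLIN1, PLIN2 or CIDEC. PLIN5 and CIDEB averaged below 10 and could not be ranked, and closeness to the remaining members was not ranked. The ranking was fragile, as leaving out 1 pig retained 1 to 4 of the 5 genes for PLIN1, 1 to 2 for PLIN2 and 0 to 3 for CIDEC, and leaving out replicates 4 and 5 together retained 0 of 5 for each.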

How the data were processed

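Per the labels, sequencing on an Illumina platform followed depletion of ribosomal RNA from total RNA and a stranded library protocol. The deposited values are TPM per Ensembl gene ID, which the authors estimated with kallisto 0.43.0, and the submitters' processing notes name Sscrofa11.1 as the pig build. For its tissue atlas the study describes quantification over annotated protein-coding genes joined with transcripts the authors assembled. Whether that set was used for this table, which holds 25880 IDs, is not stated. The study names an annotation release of this build elsewhere, also without tying it to the table. TPM sum to 1e+06 per library and keep no counts, so no counting error is given. The rat table was not used, because its IDs were not paired with names.

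Symbols came from a gene name table by ID. Each library was rescaled so that its named nuclear genes, without the 13 mitochondrially encoded ones, summed to 1e+06. Detection meant over 0.1 TPM, as in the study's methods. Comparisons with all genes used those whose rescaled TPM averaged 1 or more, and the log2 scale used a pseudocount of 0.1, which understates differences of low genes. Neighbours in the order of levels were tested with an exact two-sided sign-flip permutation test over all 64 sign assignments, with Benjamini-Hochberg adjustment over 8 pairs. The difference between replicates 4 and 5 and the rest was not tested, since that split is no condition of the study. The 9 genes, the other 13 lists and the tests were chosen with earlier results of these data known. Named genes were limited to the 9, the 3 of highest and the 1 of lowest mean in a list, and the 5 of steadiest log2 ratio to PLIN1, PLIN2 and CIDEC. ABHD5 and G0S2 fall outside this rule and were named after their values were seen. CIDEA, which had no ID, also falls outside it, as do LTB4R2, NOP9, HDGFL2 and GNG3, named because they overlap a member.

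Loci, transcripts and promoter sequences are from the NCBI RefSeq annotation and genome of Sscrofa11.1, matched by symbol for 9 of 9 genes, with 1-based positions. Length and GC content of the longest transcript were available for 92.1% of the 12130 genes. The test and the ranking were tested on simulated data. Python 3.11.15, numpy 2.4.6, pandas 2.3.3, scipy 1.17.1, matplotlib 3.10.9 and pysam 0.24.0 were used. Alternatives were other scalings (as deposited, median-centring, quantile normalization, rescaling without 49 ribosomal protein genes), pseudocounts of 1 and 0.01, detection at over 1 TPM or on the rescaled scale, a lower filter for the ranking, and leaving out each pig or replicates 4 and 5.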

Additional observations from a re-analysis of the deposited data

Results flagged for a closer look

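Among 89 sets of 6 values examined for the coat genes and the gene lists, 12 had a pig whose gap to the nearest other pig, divided by the whole range, passed Dixon's criterion, which chance passes in about 1 in 20 sets. Of the coat genes, only PLIN3 was flagged, for its share of perilipin TPM and its ratio to PLIN1. Both have PLIN1 in the denominator, and the level of PLIN3 was not flagged on either scale. Its share of the summed perilipin TPM was 2.55% in replicate 5, where the other pigs had 0.969% to 1.22%. Its ratio to PLIN1 was 0.0402 in replicate 5, against 0.0151 to 0.0234 in the others. Replicate 5 is one of the libraries with a low share of named nuclear genes.

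Genes around the droplet were flagged as well. LSS was at 157 rescaled TPM in replicate 5, against 51.3 to 73.8 elsewhere. PRKAR2B was at 795 in replicate 3 (491 to 586 elsewhere), ADRB3 at 0.316 in replicate 6 (0 to 0.0893) and PCK1, which supplies glycerol for triglyceride in fat, at 92.2 in replicate 2 (6.20 to 19.4).

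Marker genes of other cells were flagged mostly in replicate 2. There ACTA1 was at 6.36 rescaled TPM (0.292 to 1.51 elsewhere), TNNT3 at 2.79 (0 to 0.519), TEK at 108 (46.1 to 62.2) and KDR at 113 (40.4 to 57.7). TNNT1 was at 2.20 in replicate 1 (0 to 0.505), and SERPINA1 was at 0.358 in replicate 5 and listed at 0 in the others.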

How the results depend on the processing

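The scale of the values decided most of what moved. As deposited, mean levels were 329 TPM for PLIN1, 186 for PLIN4, 103 for CIDEC, 22.2 for BSCL2, 17.2 for PLIN2, 13.8 for FITM2, 6.15 for PLIN3, 1.64 for PLIN5 and 0.476 for CIDEB, all lower than after rescaling, as the rescaling factor of every library is above 1. The median CV was 0.653 as deposited, 0.327 with median-centring and 0.192 without replicates 4 and 5. Counts of members with replicates 4 and 5 both higher were 0 as deposited, 4 with median-centring and 2 with quantile normalization, and counts with both lower were 9, 0 and 1. With median-centring and with quantile normalization 1 member, PLIN2, had a pig far from the others. Taken over all 9 genes, the share of PLIN1 was 45.6% and that of PLIN4 26.8%. Without replicate 1 and without replicate 3 the log2 difference of BSCL2 minus PLIN2 was -0.072 and -0.066, and with each pig left out in turn it ranged from -0.072 to 0.43. The other differences between neighbours kept their direction under the pseudocounts, on deposited values and with any 1 pig left out, and mean levels moved by less than 1 SD under the other scalings. Leaving out replicate 4 alone took the CV of BSCL2 to 0.0958. No paired analysis was possible because the pigs form 1 group, and the replicate numbers that pig and rat samples share join no animals. Leaving out replicates 4 and 5 for the detection count (9 of 9 members) and for the median CV over all genes (0.188) was chosen after seeing the data. Depth is unknown, so low values such as those of CIDEB, PLIN5 and ADRB3 have no counting error.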
